A study of Rattus norvegicus with 12 samples.

Results

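The autophagy genes described here are Sqstm1, Map1lc3a, Map1lc3b, Becn1, Atg5, Atg7, Ulk1, Gabarapl1, Lamp1 and Wipi1, 10 of the 15154 rat genes that could be named through the accession of a probe. They were chosen by name, with earlier results of these data known. They are covered by 14 of the 30367 probes that are not controls. Each gene was read on its probe with the highest mean log2 intensity, and the other probe of Sqstm1, Map1lc3b, Atg5 and Gabarapl1 was read as a check.

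The samples were primary hippocampal neurons of Wistar rat embryos (E18 or slightly later, per the methods), matured in Neurobasal medium. In the OGD groups the cultures spent 2 h without oxygen and glucose, in an anaerobic chamber and a saline buffer holding sucrose, a model of the ischemic insult to neurons. In the control groups they spent the same time in air and CO2 in a like buffer holding glucose, and all cultures then recovered in conditioned medium for 7 h or 24 h. Each of the 4 groups had 3 samples, which per the methods came from independent cultures, and RNA of the samples was labeled with Cy3 and hybridized to 12 one-color Agilent arrays on 6 slides. Whether samples of one replicate number came from one preparation across the groups is not given in the sources used here. Each slide held the control and the OGD array of one time and replicate number. Control arrays were at position 1 (7 h) or 3 (24 h) of their slide and OGD arrays at position 2 or 4. OGD and array position can therefore not be told apart. No slide, position or scan was shared between the 7 h and the 24 h arrays. Differences between the 2 times can therefore not be told apart from these either. The cultures are not pure neurons, since the methods estimate that a minor share of the cells are glia. The question was how these transcripts stood in OGD cultures before and after the onset of cell death.

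Macroautophagy encloses cytoplasm in a double membrane, the autophagosome, which fuses with the lysosome so that its content is degraded. The ULK1 kinase complex starts the process, the BECN1 complex makes the lipid that WIPI proteins bind, and ATG7 and ATG5 serve the conjugation of ATG8 proteins (LC3 and GABARAP) to the growing membrane, where receptors such as SQSTM1 (p62) dock their cargo. In neurons this pathway clears protein aggregates and mitochondria, it is known to respond to ischemia, and much of its regulation lies in proteins and not in transcripts, which alone were measured here.

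The p-values printed are limma's, two-sided and adjusted by the Benjamini-Hochberg method over all probes, and "passed" refers to an unadjusted limma p under 0.05 (an exact permutation test of 3 arrays against 3 cannot go below 0.1). All levels below are log2 intensities with the median of each array set to 0, so a difference of 1 is a doubling relative to the other probes of the array, and levels of different probes were not set against each other. Before that centring the median intensity was 402 to 660 on the control arrays and 131 to 546 on the OGD arrays, and 78.3% to 87.1% of spots were well above background. The 2 dimmest arrays were OGD replicate 1 at 24 h (131) and OGD replicate 1 at 7 h (234). All 15 neuron markers were well above background on every array. In a bulk sample fewer cells of a type and less RNA per cell cannot be told apart.

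Atg7 was the only one of the 9 members with a measurable fold whose transcript passed an unadjusted limma p under 0.05, and it was lower 7 h after OGD. No member passed at 24 h. No member passed after adjustment over all 30367 probes, and neither did any other probe on the array (0%, with adjusted p of at least 0.117 for 7 h and 0.209 for 24 h by limma). At 7 h the count was therefore 1 of 9 lower and 0 of 9 higher, against 7.03% of all probes lower and 4.79% higher. Among 10923 named genes read on their brightest probe and well above background on all 12 arrays, these shares were 8.61% and 4.35%. The count at 24 h was 0 of 9 in both directions, by limma and by the methods' t-test alike, against 6.19% of all probes lower and 7.51% higher, or 8.61% and 5.68% of the well-measured named genes. A member count of 1 in 9 is near these shares and sets the members apart in no direction. The median log2 fold change of the 9 members was -0.18 at both times (-0.21 at 7 h and -0.17 at 24 h without Map1lc3a, whose probe was saturated on some arrays), beside -0.11 at 7 h and -0.10 at 24 h for the well-measured named genes. All 9 lay under the fold of 2 that the methods also asked for, which with the p was met by 3.74% of all probes at 7 h and 5.67% at 24 h.

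**Figure D1:**
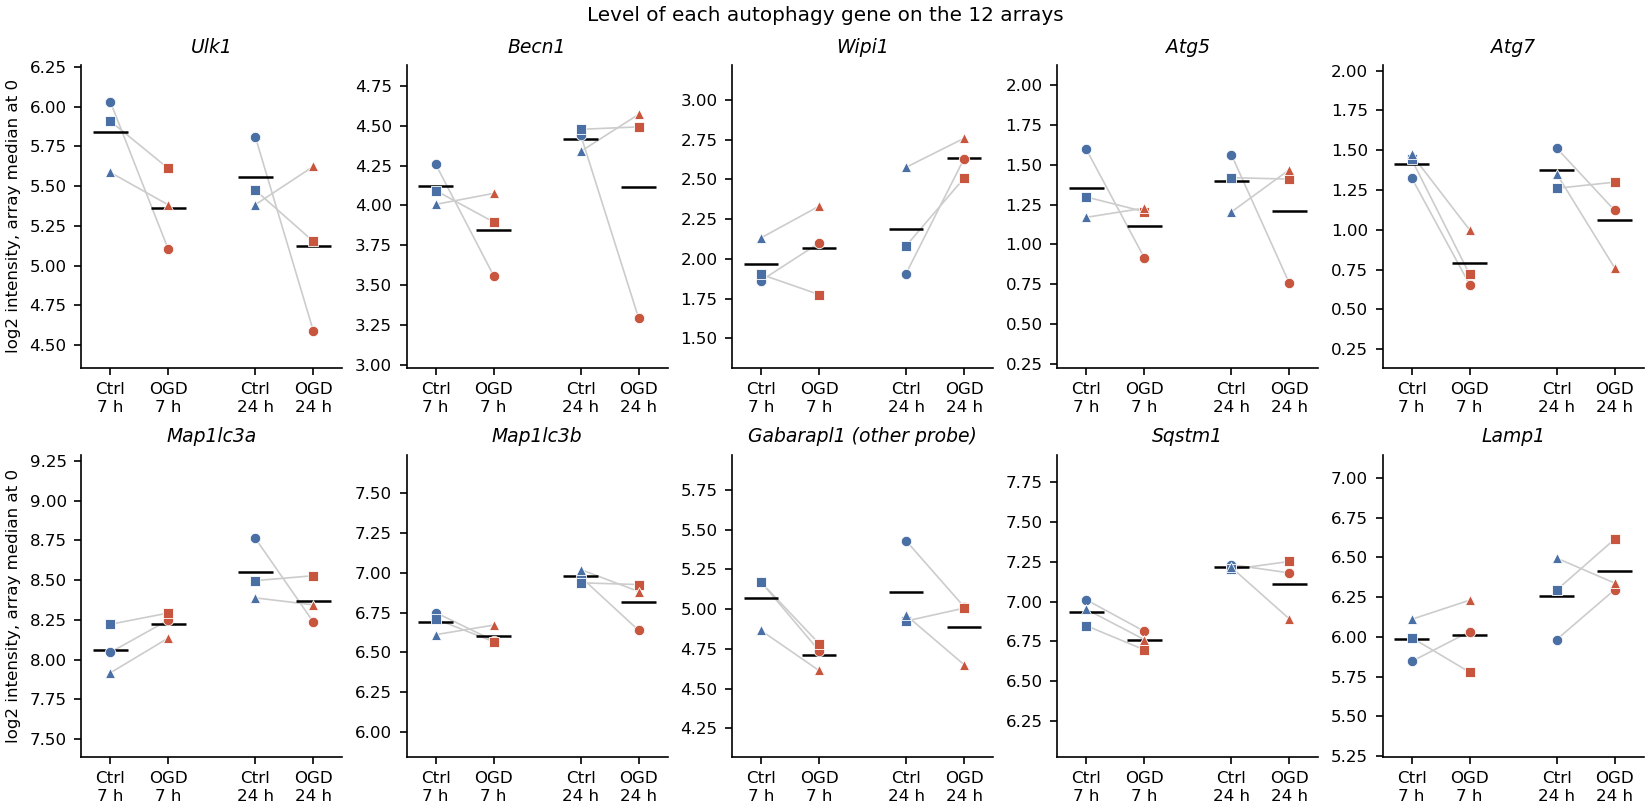
Log2 intensity, with the median of each array set to 0, of each autophagy gene on the 12 arrays. Circles, squares and triangles are replicates 1, 2 and 3, thin lines join the 2 arrays of a slide, black bars are group means, and every panel spans the same range. For Atg7 at 7 h the 3 OGD arrays (0.65 to 1.00) sit below the 3 control arrays (1.33 to 1.47), while for Becn1 at 24 h 1 OGD array (3.29) lies below the control arrays and the other two above them. Gabarapl1 is drawn on its other probe because the brightest was saturated.

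Ulk1, the kinase that starts autophagosome formation, had values of 6.03, 5.91 and 5.59 on the control arrays at 7 h and 5.10, 5.61 and 5.38 on the OGD arrays. At 24 h the control arrays read 5.81, 5.47 and 5.38 and the OGD arrays 4.59, 5.15 and 5.62. The groups overlapped at both times, with the dimmest array the lowest of all 12, although the slide differences at 7 h were all negative (-0.93, -0.30 and -0.20). The OGD minus control difference was -0.48 ± 0.27 (SE, n = 3 a group, adjusted p = 0.504) at 7 h and -0.43 ± 0.27 (adjusted p = 0.482) at 24 h. Slide by slide at 24 h it was -1.22, -0.32 and 0.24, and without OGD replicate 1 at 24 h the difference was -0.17. Without OGD replicate 3 at 24 h it was -0.69, past the unadjusted threshold by limma. The 7 h difference passed under quantile normalization (-0.44) and when OGD replicate 1 at 24 h was left out of the shared estimate of the spread, and Ulk1 was then the other member that passed at 7 h beside Atg7.

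Becn1, the scaffold of the class III PI3-kinase complex that makes the nucleating lipid, read 4.26, 4.09 and 4.01 in control and 3.56, 3.90 and 4.08 in OGD cultures at 7 h. Recovered for 24 h, the cultures read 4.44, 4.48 and 4.34 in control and 3.29, 4.49 and 4.57 in OGD cultures. Both other OGD arrays at 24 h were above every control array, and the low mean comes from the dimmest array. The differences were -0.28 ± 0.31 (adjusted p = 0.744) at 7 h and -0.30 ± 0.31 (adjusted p = 0.669) at 24 h, and the latter became 0.11 without that array.

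Wipi1, which binds the lipid made by the BECN1 complex and whose transcript is often used as a sign of induced autophagy, was at 1.86, 1.90 and 2.13 in control and 2.10, 1.78 and 2.33 in OGD cultures at 7 h. The arrays at 24 h stood at 1.91, 2.08 and 2.58 in control and 2.63, 2.51 and 2.76 in OGD cultures. The OGD array was the higher one on all 3 slides at 24 h (by 0.72, 0.43 and 0.18), yet the groups overlapped because control replicate 3 lay between the OGD arrays. The difference was 0.10 ± 0.22 (adjusted p = 0.866) at 7 h and 0.44 ± 0.22 at 24 h, a ratio of 1.36 that missed the unadjusted threshold (adjusted p = 0.397, 95% interval -0.04 to 0.93). Without control replicate 3 at 24 h it was 0.64 and past the unadjusted threshold by limma. The difference between the 24 h and the 7 h response was 0.34 ± 0.31 (adjusted p = 1).

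Atg7, the E1-like enzyme that activates ATG8 proteins and ATG12, gave 1.33, 1.44 and 1.47 on the control arrays and 0.65, 0.72 and 1.00 on the OGD arrays at 7 h. Every OGD array was below every control array. The log2 fold change was -0.62 ± 0.19 (95% interval -1.04 to -0.21, limma adjusted p = 0.276), which leaves the OGD cultures at 0.649 of control, and each of the 3 slides had the lower value on its OGD array, with OGD minus control differences of -0.67, -0.72 and -0.47. Leaving out any 1 of the 12 arrays kept it between -0.73 and -0.56, past an unadjusted p of 0.05 each time. With slide as a block it also passed, and scaled to a spike-in probe it was -1.40 and did not pass. At 24 h the control arrays read 1.51, 1.26 and 1.35 and the OGD arrays 1.12, 1.30 and 0.76, which overlapped, with a difference of -0.32 ± 0.19 (adjusted p = 0.463). The 2 responses differed by 0.31 ± 0.26 (adjusted p = 1), so the data do not show that the difference at 7 h had gone by 24 h.

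Atg5, which joins ATG12 in the complex that directs lipid attachment to ATG8 proteins, was read by 2 probes, A_44_P761066, which the rule took as the brightest, and A_64_P118737, and they differed in outcome. On the brighter probe the control arrays at 7 h read 1.60, 1.30 and 1.17 and the OGD arrays 0.91, 1.21 and 1.23, a difference of -0.24 ± 0.23 (adjusted p = 0.703). On the other probe the control arrays read 1.52, 1.57 and 1.41 and the OGD arrays 0.79, 0.88 and 1.09. These did not overlap, and the difference of -0.58 ± 0.16 (limma adjusted p = 0.266) passed an unadjusted p of 0.05 also when any 1 array was left out. At 24 h both probes had overlapping groups, with differences of -0.18 ± 0.23 (adjusted p = 0.737) and -0.13 ± 0.16 (adjusted p = 0.723). The change of the other probe from the 7 h to the 24 h response was 0.45 ± 0.22 (adjusted p = 1). Whether the probes read the same transcripts was not tested.

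Among the ATG8 proteins themselves, Map1lc3a (LC3A) read 8.05, 8.22 and 7.92 in control and 8.25, 8.29 and 8.14 in OGD cultures at 7 h. After 24 h the values were 8.76, 8.50 and 8.39 in control and 8.24, 8.53 and 8.34 in OGD cultures. The groups overlapped at both times, and the differences were 0.16 ± 0.17 (adjusted p = 0.73) and -0.18 ± 0.17 (adjusted p = 0.646). Its probe was saturated on 4 of the 12 arrays, 3 of them controls, so a drop from control would be understated where it exists.

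Map1lc3b (LC3B), the form most used to follow autophagosomes, read 6.75, 6.71 and 6.61 in control and 6.57, 6.57 and 6.67 in OGD cultures at 7 h, a difference of -0.09 ± 0.15 (adjusted p = 0.846). At 24 h it read 6.97, 6.94 and 7.02 in control and 6.64, 6.93 and 6.88 in OGD cultures. There every OGD array was below every control array, though the slide difference of replicate 2 was only -0.01, and the difference was -0.16 ± 0.15 (adjusted p = 0.636). Its other probe, A_44_P137508, read 5.46, 5.84 and 5.63 in control and 4.96, 5.21 and 5.26 in OGD cultures at 7 h. These groups did not overlap (difference -0.50 ± 0.22, limma adjusted p = 0.412), but only 4 of the 12 fits that left out 1 array kept an unadjusted p under 0.05, and with slide as a block it did not pass. At 24 h the other probe gave -0.41 ± 0.22 (adjusted p = 0.426). The 2 probes of Map1lc3b thus had differences of the same sign at both times.

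For Gabarapl1, a GABARAP-family ATG8 protein abundant in neurons, no fold is given, because its brightest probe was saturated on 11 of the 12 arrays. Its intensity was 54386 to 58579 on those arrays, whatever the array's median, so its centred level rose as the array grew dimmer. On its other probe, A_64_P156684, it read 5.17, 5.17 and 4.87 in control and 4.74, 4.78 and 4.61 in OGD cultures at 7 h, with every OGD array below every control array. The difference of -0.36 ± 0.20 missed the unadjusted threshold by limma (adjusted p = 0.497), and passed it by the methods' t-test and, at -0.83, after normexp background correction. The same probe at 24 h read 5.43, 4.92 and 4.96 in control and 5.01, 5.01 and 4.65 in OGD cultures, with overlap and a difference of -0.21 ± 0.20 (adjusted p = 0.627). The saturated probe gave a fitted value of 0.59 at 7 h with the opposite sign, which is not used as a measure of the transcript.

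**Figure D2:**
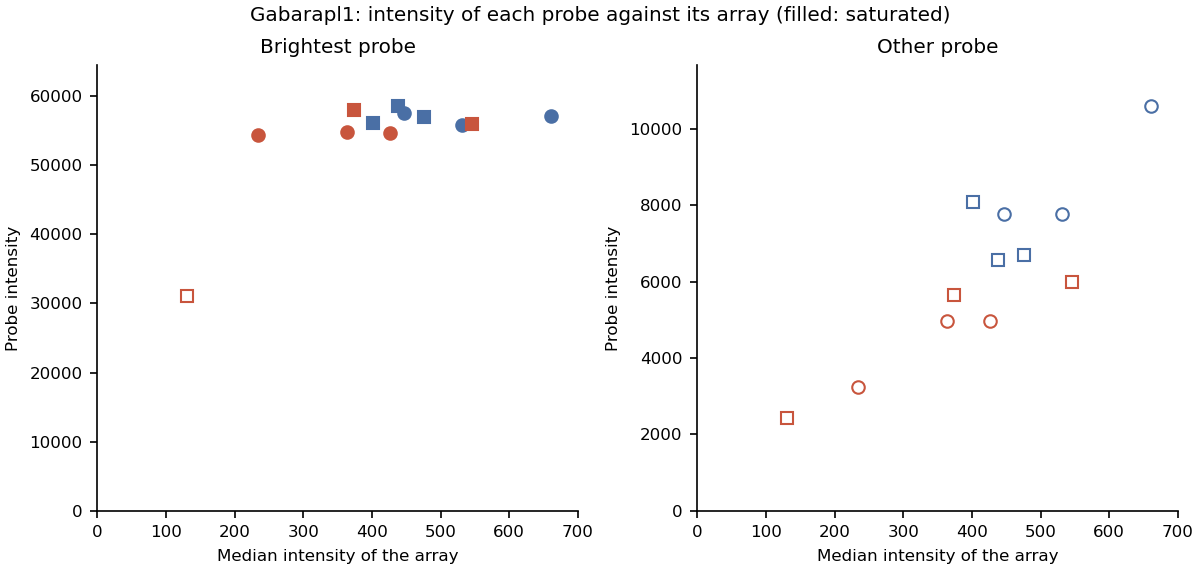
Probe intensity of Gabarapl1 (vertical, linear units) against the median intensity of the array (horizontal), for both probes. Blue is control, red is OGD, circles are 7 h, squares are 24 h, and filled points were saturated. The brightest probe stays between 54386 and 58579 on 11 arrays and reads 31079 only on the dimmest array, while the other probe runs from 2433 to 10599.

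Sqstm1, the p62 receptor that links ubiquitinated cargo to ATG8 proteins and is itself degraded by autophagy, read 7.01, 6.85 and 6.95 in control and 6.81, 6.70 and 6.76 in OGD cultures at 7 h. Every OGD array was below every control array, on the 3 slides by -0.20, -0.15 and -0.19. This small difference of -0.18 ± 0.16 did not pass by limma (adjusted p = 0.668) but did, without adjustment, by the methods' t-test, which uses the spread of the gene's own arrays at that time alone. The 24 h arrays read 7.23, 7.20 and 7.22 in control and 7.18, 7.25 and 6.89 in OGD cultures, overlapping, with a difference of -0.11 ± 0.16 (adjusted p = 0.782). The other probe, A_64_P149735, gave -0.33 ± 0.22 (adjusted p = 0.566) and -0.23 ± 0.22 (adjusted p = 0.649), with overlap at both times.

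Lamp1, a major glycoprotein of the lysosomal membrane, read 5.85 to 6.11 in control and 5.78 to 6.23 in OGD cultures at 7 h, and 5.98 to 6.50 in control and 6.30 to 6.61 in OGD cultures at 24 h. The groups overlapped at both times, with differences of 0.03 ± 0.20 (adjusted p = 0.958) and 0.16 ± 0.20 (adjusted p = 0.738).

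**Figure D3:**
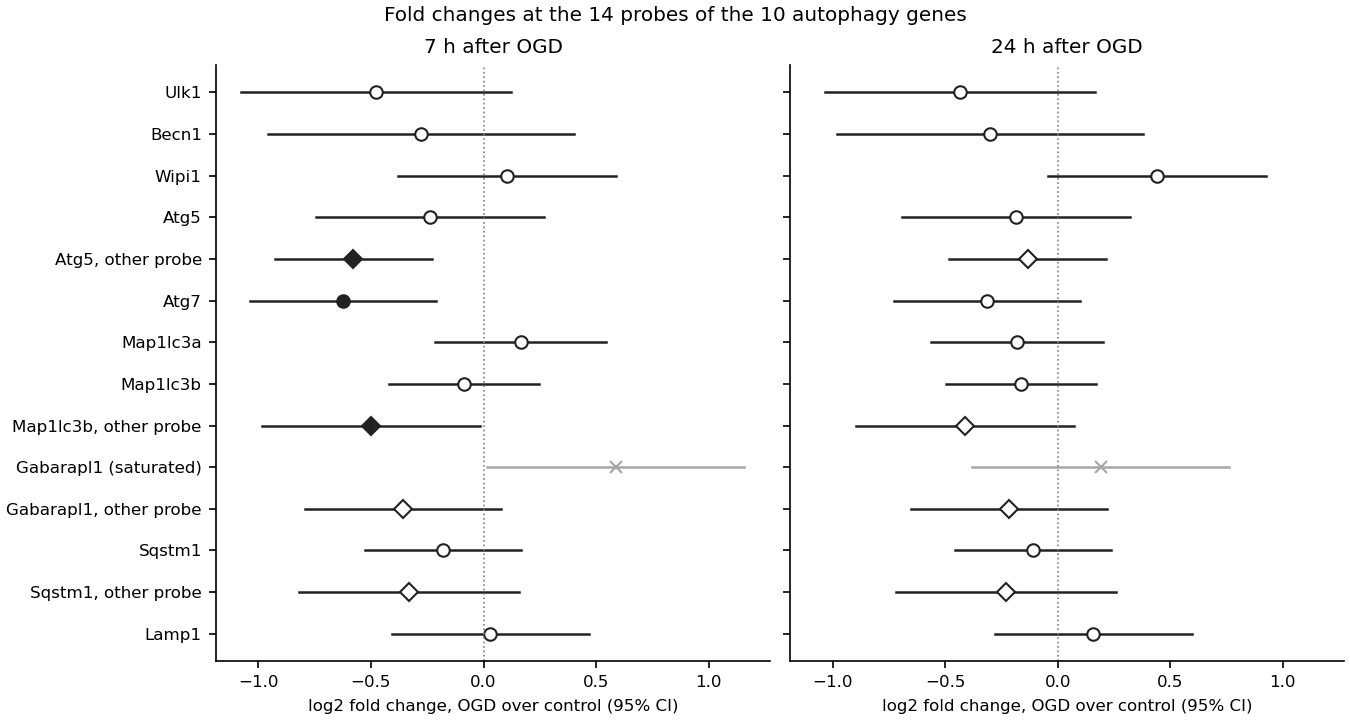
Log2 fold change of OGD over control (horizontal) with its 95% interval from limma, at 7 h and 24 h, for the 14 probes of the 10 genes. Circles are brightest probes, diamonds other probes, filled symbols have an unadjusted p under 0.05, and the grey cross is the saturated Gabarapl1 probe. At 7 h the filled symbols are Atg7 (-0.62) and the other probes of Atg5 (-0.58) and Map1lc3b (-0.50), and at 24 h there are none.

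Over the members, 2 of the 9 brightest probes (Sqstm1 and Atg7) had all OGD arrays below all control arrays at 7 h and none had them all above, against 15.5% and 10.6% of all probes. At 24 h this was 1 of 9 below (Map1lc3b) and 0 of 9 above, against 7.02% and 10.9%. Of the 4 other probes, 3 were non-overlapping below control at 7 h and 0 at 24 h. For no member did the 24 h response differ from the 7 h response at an unadjusted limma p under 0.05 (0 of 9, against 3.58% of all probes).

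The direction of the members also differed from slide to slide. At 7 h the OGD array was lower for 6, 8 and 3 of the 9 members on the slides of replicates 1, 2 and 3, and at 24 h for 7, 3 and 5. The median intensity of the OGD array was 0.355, 0.814 and 0.800 of that of its control at 7 h and 0.325, 0.784 and 1.25 at 24 h. Among the 10923 well-measured named genes the OGD array was lower for 68.8%, 57.6% and 43.3% at 7 h. At 24 h it was lower for 67.0%, 57.6% and 33.5%. These shares were highest on the slides of the 2 dimmest OGD arrays. The member counts did not follow that order. At 7 h replicate 2 had 8 lower and replicate 1 had 6, and at 24 h replicate 3 had 5 and replicate 2 had 3. The 2 arrays of a slide were scanned apart, the OGD array first, for replicates 1 and 2 at 7 h and replicate 1 at 24 h, and together on the other 3 slides. The part of array brightness in the members' values was not tested.

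The other genes of the pathway were taken from 9 lists of 102 genes, of which 91 had a named probe and 89 a measurable fold (Gabarapl1 and the lysosomal protease gene Ctsb were saturated). At 7 h 12 of the 89 were lower and 0 higher, 13.5% and 0% against the 8.61% and 4.35% of well-measured named genes, and 68 of 89 fold changes lay below 0 (76.4% against 61.8%), with 60 below 0 (and 8 that passed) when arrays were centred on the 75th percentile and 89 when scaled to the spike-in probe. The median was -0.24 against -0.11. At 24 h 2 were lower and 3 higher, 2.25% and 3.37% against 8.61% and 5.68%, and 67 of 89 lay below 0 (75.3% against 60.4%), with a median of -0.19 against -0.10. Centred on the 75th percentile 57 of 89 lay below 0 at 24 h, and without OGD replicate 1 at 24 h, the dimmest array, 50 did. With slide as a block 7 genes passed at 7 h and 3 at 24 h. In that fit 5.73% of all probes were lower and 4.81% higher at 7 h, and 4.39% and 7.75% at 24 h. Leaving out 1 array moved the count at 7 h between 4 (without control replicate 2 at 7 h) and 25 (without OGD replicate 1 at 24 h). In each of these fits 0 were higher, and scaled to the spike-in probe the count was 0 at both times. Without control replicate 2 at 7 h 4.71% of all probes were lower and 3.11% higher at 7 h. Without OGD replicate 1 at 24 h these shares were 11.6% and 9.48%. None of the 89 passed after adjustment and none reached a fold of 2 together with p. Their smallest adjusted p by limma was 0.262 (Wipi2, 7 h) and 0.254 (Cd63, 24 h). At 7 h 31 of 89 had all OGD arrays below all control arrays and 1 all above (34.8% and 1.12%), beside 15.5% and 10.6% of all probes. At 24 h these counts were 8 and 5 (8.99% and 5.62%), beside 7.02% and 10.9% of all probes. All probes include dim and unnamed ones, and these shares were not taken among the well-measured named genes.

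**Figure D4:**
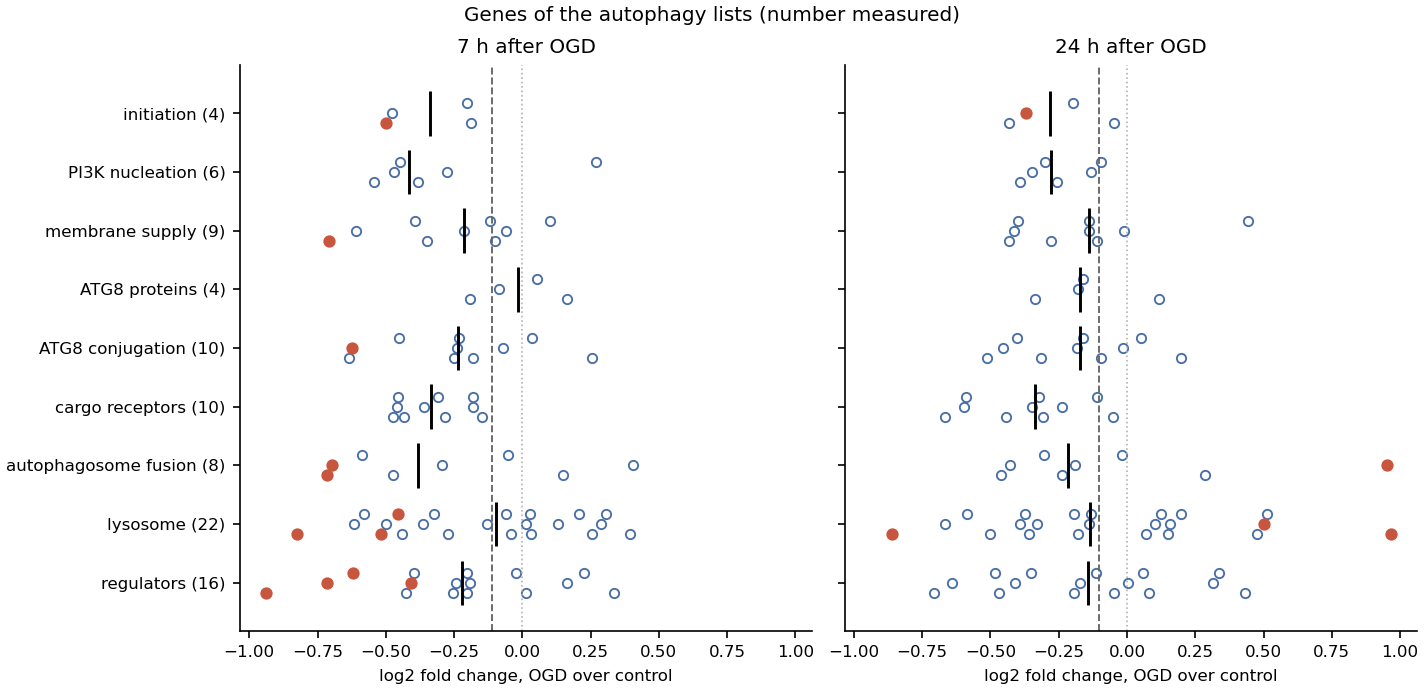
Log2 fold change of OGD over control (horizontal) of each measured gene of the 9 lists, at 7 h and 24 h. Filled red points have an unadjusted limma p under 0.05, black ticks are list medians, and the dashed line is the median of the 10923 well-measured named genes (-0.11 and -0.10). The 12 filled points at 7 h all lie below 0, and at 24 h 2 lie below and 3 above.

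The 12 genes lower at 7 h lay in 6 lists, and they are named here after their values were seen. Of membrane supply, Wipi2, which recruits the ATG16L1 complex, was lower by a log2 fold change of -0.71 ± 0.19 (adjusted p = 0.262). Of the ATG8 conjugation list Atg7 was the one that passed among 10, and of the initiation list it was Atg101, a subunit of the ULK1 complex, at -0.50 among 4. Of autophagosome fusion, Vps11 (-0.72 ± 0.22) and Vps18 (-0.70 ± 0.21), core subunits shared by the HOPS and CORVET tethering complexes, were lower, 2 of 8. Of the lysosome, 3 of 22 were lower. They were Gaa, the acid alpha-glucosidase (-0.45), Grn, progranulin (-0.52), and Atp6v1b2, a subunit of the proton pump (-0.83). Of the regulators, 4 of 16 were lower, namely Mtor, the kinase that holds autophagy back when nutrients are ample (-0.72), Sesn2, a stress-induced inhibitor of that kinase's complex (-0.94), Flcn, folliculin, which acts on the Rag GTPases (-0.62), and Mitf, a transcription factor related to TFEB (-0.41). Genes that promote and genes that restrain autophagy were thus both among those lower. Wipi2, Vps11, Vps18 and Atg7 kept an unadjusted limma p under 0.05 in all 12 fits that left out 1 array, the other 8 genes in 3 to 10 of them. With slide as a block Atg101, Gaa, Atp6v1b2, Flcn and Mitf did not pass. Centred on the 75th percentile, and likewise under quantile normalization, Atg101, Gaa, Grn, Mitf and Sesn2 did not.

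At 24 h the 3 genes higher after OGD were Cd63, a tetraspanin of late endosomes and lysosomes (0.97 ± 0.24, limma adjusted p = 0.254), Vamp8, a SNARE of autophagosome fusion (0.95 ± 0.37, adjusted p = 0.316), and Ctsl, a lysosomal protease gene (0.50 ± 0.20, adjusted p = 0.332). Scaled to the spike-in probe, none of the 3 passed and all had negative values. Of the 12 fits that left out 1 array, Cd63 passed in 12, Vamp8 in 10 and Ctsl in 9. Cd63 read 6.58, 7.05 and 7.22 in control and 8.32, 7.70 and 7.73 in OGD cultures, with every OGD array above every control array. The 2 lower genes were Ulk2, a kinase related to Ulk1 (-0.37), and Atp6v1b2 (-0.86). With slide as a block neither of them passed at 24 h, and Ulk2 passed in 5 of the 12 fits that left out 1 array. Atp6v1b2 was the one pathway gene that passed at both times, and it lost the call at 24 h without OGD replicate 1 at 24 h (-0.37). The cargo receptors, the list of Sqstm1, had 10 of 10 fold changes below 0 at both times with a median of -0.34, and none passed. Of the well-measured named genes 61.8% and 60.4% lay below 0, and 4 of 4 genes of the initiation list did at both times. In the list of the BECN1 complex 5 of 6 genes had negative values at 7 h and 6 of 6 at 24 h. Centred on the 75th percentile 10 and 8 cargo receptors lay below 0. Without OGD replicate 1 at 24 h only 5 of the 10 lay below 0 at 24 h.

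Marker genes of the cell types are given beside the shares of the well-measured named genes, 8.61% lower and 4.35% higher at 7 h and 8.61% and 5.68% at 24 h. Of 15 neuron markers 2 were lower at 7 h and 9 at 24 h (13.3% and 60.0%), and none was higher. Their summed level relative to the array median was 866 to 1124 in control and 808 to 1121 in OGD cultures at 7 h, and 982 to 1331 against 534 to 956 at 24 h. Of 11 measured astrocyte markers 3 (27.3%) were higher at 7 h and 0 at 24 h. Their sums were 1172 to 1384 in control and 1560 to 2059 in OGD cultures at 7 h, and 1358 to 1500 and 1184 to 1615 at 24 h. Unlike in the pathway lists, saturated probes were not left out of the marker counts and sums. The level of the astrocyte marker Aldoc followed that of the saturated Gabarapl1 probe over the 12 arrays (Pearson r 0.991). The part of saturation in the astrocyte values was not tested. Of 12 microglia markers 1 (8.33%) was higher at each time, and their sum was 15.9 to 16.6 in control and 16.0 to 29.1 in OGD cultures at 7 h and 21.1 to 25.7 and 25.5 to 35.8 at 24 h. Of the 12 microglia markers 9 were well above background on every array of a group, or 8 in the control cultures at 24 h. Ptprc, which defines leukocytes, was the only one not well above background on any array of any group. Of the 11 markers of the oligodendrocyte lineage 2 (18.2%) fell at 7 h and 1 (9.09%) rose at 24 h, and of 11 vascular and fibroblast markers 3 (27.3%) fell at 7 h and 1 (9.09%) rose at 24 h. The part of these shifts in the values of the autophagy genes was not tested.

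Over the 12 arrays, the named genes whose level was most like that of Sqstm1 were Nucb1, Pdlim7, Prr5, Anapc15 and Dcaf8, with a Pearson r of 0.966 for the first and 0.923 for the last among 10906 genes. For Map1lc3b they were Rnaseh2a, Nudt16l1, Apc2, Grm5 and Atp6v0b (0.976 to 0.960). For the other probe of Gabarapl1 they were Mul1, Fam118a, Srprb, Morn4 and Spg7 (0.907 to 0.882). The other probe of Sqstm1 followed a different set, led by Nit1 (0.988), and so did that of Map1lc3b, led by Vapb (0.978). The arrays share slides, brightness and groups, so these values are a description.

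Many lysosomal and autophagy genes carry an E-box with the core CACGTG near their start, to which TFEB and its relatives bind. RefSeq promoter windows (GRCr8, 250 bases before to 50 after the start) were at hand for 8 of the 10 members, and 2 of them, Lamp1 and Atg5, held that core, which reads alike on both strands. It was in 6.42% of all 33469 windows, in 6 of 15 windows of the lysosome list and in 7 of 58 of the other pathway lists. A list gene with several windows was counted on the one with most copies, while the 6.42% counts every window. The windows of Lamp1 and Atg5 are shown because they are the members with the motif, the first at chr16:83075014-83075313 on the minus strand with 5 copies and the second at chr20:49380585-49380884 on the plus strand with 1 copy, with the core in capitals.
Lamp1: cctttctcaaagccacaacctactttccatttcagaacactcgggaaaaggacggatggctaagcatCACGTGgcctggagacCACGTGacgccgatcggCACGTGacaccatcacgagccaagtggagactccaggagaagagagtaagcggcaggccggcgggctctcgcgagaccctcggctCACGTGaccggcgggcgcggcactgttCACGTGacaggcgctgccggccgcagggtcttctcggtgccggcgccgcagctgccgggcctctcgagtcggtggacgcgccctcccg
Atg5: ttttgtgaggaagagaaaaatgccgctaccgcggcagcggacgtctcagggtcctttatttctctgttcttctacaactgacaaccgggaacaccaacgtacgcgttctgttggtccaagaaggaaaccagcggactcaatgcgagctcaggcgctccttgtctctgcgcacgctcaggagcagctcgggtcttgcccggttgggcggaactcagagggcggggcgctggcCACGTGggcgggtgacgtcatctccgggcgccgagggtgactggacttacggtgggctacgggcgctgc
The 13 measured pathway genes with the core in their window had a median log2 fold change of -0.29 at 7 h and -0.19 at 24 h, and the 59 without it -0.23 and -0.18. At 7 h 2 of the 13 were lower (Vps11 and Gaa) and at 24 h 1 was higher (Cd63), beside 9 lower of the 59 at 7 h, and 1 lower with 2 higher at 24 h. The presence of the letters is a description of these windows and no measure of binding.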

How the data were processed

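Total RNA of 12 samples was hybridized to Agilent rat 4x44K arrays. The authors deposited Feature Extraction intensity values of each of 44254 spots per array, background-subtracted and not normalized between arrays. They also deposited log2 values whose medians were centred per the methods. Over the probes used here the array medians of these log2 values ran from 7.57 to 7.72. After removal of 1 constant per array they were within 0.01 of the log2 intensities for over 99.9% of probes. The number of arrays limits the precision. Here outlier spots were left out, log2 was taken, spots of a probe were averaged and array medians were subtracted. Probes were named through their accession (18004 of 30367). The 4 groups were fitted in 1 linear model with limma 3.58.1 in R 4.3.3, two-sided, with Benjamini-Hochberg adjustment over all probes, after a test on simulated data. A ± value is the SE. The methods call the 3 replicates independent cultures; whether 1 preparation served all groups is not given in the sources used here. The members and lists were chosen with earlier results of these data known. The text names all members, and of the lists the genes with p under 0.05 and a fold of 2, of which there were 0; genes named under p alone were chosen after their values were seen. A probe saturated on every array of a group was given no fold. Slide, normalization, probe choice and left-out arrays were varied.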

Additional observations from a re-analysis of the deposited data

Results flagged for a closer look

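The response to OGD differed between 24 h and 7 h for 2 pathway genes by the interaction term of the limma model, at an unadjusted p under 0.05. Wipi2 differed by 0.60 on the log2 scale (limma adjusted p = 1), from -0.71 at 7 h to -0.11 at 24 h. Grn differed by 0.64 (limma adjusted p = 1), from -0.52 at 7 h to 0.12 at 24 h. These are 2 of 89 pathway genes, beside 3.58% of all probes, and neither is a member.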

How the results depend on the processing

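The call of Atg7 at 7 h was kept under 11 of 12 other settings and in all 12 fits that left out 1 array; scaled to the spike-in probe, which moved all fold changes by -0.78 at 7 h and -1.03 at 24 h, its value was -1.40 without a call. At 7 h (1 member and 12 pathway genes in the main analysis) the members that passed were 0 under the spike-in scaling, and 2 under quantile normalization, the methods' t-test, averaged probes, Atg5 on its other probe and Gabarapl1 on its saturated probe. The pathway genes that passed at 7 h were 8 when centred on the 75th percentile, 19 under quantile normalization, 0 under the spike-in, 20 by the methods' t-test, 19 with limma on each time alone and 23 with normexp on the median signals. These pathway genes were all lower, apart from 1 under quantile normalization. Of all probes 7.03% were lower and 4.79% higher at 7 h in the main analysis. These shares were 5.08% and 5.43% when centred on the 75th percentile, and 8.05% and 5.71% under quantile normalization. They were 0.886% and 0.263% under the spike-in, and 9.70% and 5.77% by the methods' t-test. With limma on each time alone they were 10.3% and 7.71%, and with normexp 6.90% and 12.3%. At 24 h (0 members and 5 pathway genes) 1 member passed under quantile normalization (Wipi1). The pathway genes were then 13 under quantile normalization, 0 under the spike-in, 2 by the methods' t-test, 1 with limma on each time alone, 11 when the probes of a gene were averaged, and 2 with normexp.

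The slide as a fixed replicate block left 7 pathway genes at 7 h and 3 at 24 h, and kept the members at 1 and 0. The shared number pairs the arrays of a slide, but their deviations from the group means correlated at -0.05, 0.11 and -0.01 at 7 h and 0.08, 0.17 and -0.01 at 24 h, and not every array was closest to its own number.

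With 1 array left out at a time, members that passed ranged from 1 to 2 at 7 h, from 0 to 1 at 24 h and stayed at 0 for the difference between the times. Pathway genes ranged at 7 h from 4 (without control replicate 2 at 7 h) to 25 (without OGD replicate 1 at 24 h). In these 2 fits 4.71% and 11.6% of all probes were lower at 7 h, and 3.11% and 9.48% higher. At 24 h they ranged from 1 (without control replicate 1 at 24 h) to 15 (without OGD replicate 2 at 24 h). In those 2 fits 2.49% and 8.93% of all probes were lower at 24 h, and 4.38% and 10.2% higher.

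Signs turned as follows, with no call on either side unless named. Centring on the 75th percentile, which raised all fold changes by 0.11, gave Map1lc3b 0.0264 at 7 h and Sqstm1 0.00394 at 24 h, and turned the split of all probes that passed at 7 h from 7.03% lower and 4.79% higher to 5.08% and 5.43%. Quantile normalization gave Map1lc3a -0.36 at 7 h. The spike-in gave -0.61 for Map1lc3a, -0.75 for Lamp1 and -0.68 for Wipi1 at 7 h, and -0.87 for Lamp1, -0.58 for Wipi1, and, called in the main analysis, -0.0740 for Vamp8, -0.52 for Ctsl and -0.0587 for Cd63 at 24 h. Normexp, chosen after seeing the data because the planned version needed a mean signal, gave -0.42 for Map1lc3a, -0.52 for Lamp1 and -0.21 for Wipi1 at 7 h and -0.28 for Lamp1 at 24 h. Leaving out 1 array turned Lamp1 at 7 h (lowest -0.0785, highest 0.15), Wipi1 at 7 h (-0.0282 to 0.25), Becn1 at 24 h (-0.53 to 0.11) and Atg5 at 24 h (-0.31 to 0.0446). Of 918 single-gene values under an alternative 789 kept sign and call, 8 gained a call, 20 changed sign and the rest lost the call. The probe choices for Atg5 and Gabarapl1 were also made after seeing the data.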
